A study of Mus musculus with 12 samples.

Results

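The comparison concerns the genes that changed when angiosarcoma cells were exposed to SAHA (vorinostat) in place of its vehicle DMSO. ISOS-1 is a wild-type mouse angiosarcoma line, annotated as endothelial by the submitters. It is a single line, so the values describe these cells only. Messenger RNA was read from transcript 3′ ends in 3 libraries of cells given SAHA at 1 µM for 24 h and 3 libraries of cells given DMSO, for which no exposure time is stated. The series also holds 3 libraries with valproic acid (VPA) at 2 mM for 36 h and 3 with the bromodomain inhibitor JQ1 at 1 µM for 36 h. All cells grew in the same serum-containing medium. Of 55359 gene identifiers, the 12836 with at least 1 TPM in at least 3 of the 12 libraries were tested. TPM is a length-scaled transcript abundance that sums to 1000000 in every library, and it keeps no sequencing depth.

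Histone deacetylases remove acetyl groups from lysines of histones and of many other proteins, and acetylated histones mark open, transcribed chromatin. SAHA is a hydroxamate that binds the zinc ion in the active site of the zinc-dependent enzymes of this family and leaves the NAD-dependent sirtuins untouched. Inhibition is known to raise some transcripts and lower others in most cell types, and induction of the cell cycle inhibitor Cdkn1a and of metallothionein genes is a familiar part of the response. Angiosarcoma is a malignant tumour of cells with endothelial features.

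Each gene was compared with limma on log2(TPM + 1), and a gene was called where its adjusted p (by the method of Benjamini and Hochberg, over the 12836 genes) was under 0.05. The verbs rose and fell are used only for called genes. A call is said to have held where it stayed past the threshold in each of the 12 fits that left out 1 library. Nothing in the labels says that replicates came from different cultures, so the spread behind these p-values may be technical. The 6 SAHA and DMSO libraries were alike in their overall make-up, apart from the share of ribosomal RNA. Genes above 0 TPM numbered 13763 to 14547 with SAHA and 13735 to 14382 with DMSO. Mitochondrially encoded genes took 11 to 11.7% of the TPM with SAHA and 11.1 to 11.2% with DMSO. The ribosomal RNA gene Rn18s took 11.1% in SAHA replicate 3 and 7.95 to 9.56% in the other 11 libraries. Across genes, which do not count as replicates, Pearson's r was 0.937 to 0.946 among SAHA libraries, 0.944 to 0.947 among DMSO libraries and 0.929 to 0.945 between them.

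The endothelial annotation was checked against marker genes. Of 24 blood endothelial markers, 7 were listed at 0 in all 12 libraries, including Cdh5 (VE-cadherin) and the transcription factor Erg, and 4 passed the filter on low values. The sum over these markers was 108.6 to 125 TPM with DMSO and 200.8 to 218 with SAHA, and nearly all of it came from Cd34. Cd34, a sialomucin of endothelial, progenitor and some stromal cells, read 109, 93.6 and 107 TPM with DMSO and 204, 185 and 192 with SAHA (log2 change 0.90, SE 0.10, adjusted p = 0.000589). Pdpn (podoplanin), the only tested lymphatic marker, rose from 73.3 ± 4.24 to 115 ± 7.61 TPM (0.65, adjusted p = 0.000918). Among fibroblast markers, 4 of 8 tested genes rose (Thy1, Dcn, Mfap5 and Col3a1), against 3.09% of all tested genes. The sum over that list was 783 to 825 TPM with DMSO and 1116 to 1262 with SAHA. Thy1 stood at 154 ± 7.2 TPM with DMSO and 567 ± 81.5 with SAHA. The collagen genes of the list that are most abundant were not called, Col1a1 at 147 ± 5.16 TPM with DMSO and 143 ± 6.32 with SAHA (adjusted p = 0.787) and Col1a2 at 469.6 ± 19.6 and 427 ± 10.1 (adjusted p = 0.122). Of the fibroblast calls only that of Thy1 held, and the count was 2 on leaving out DMSO library 2 or SAHA library 2 and 1 on leaving out DMSO library 1 or 3 or SAHA library 1. Most of the standard endothelial marker set was thus at or near 0 in both groups, and the part of the marker shifts in the results below was not tested. In bulk RNA, a change in the number of cells of one kind and a change in RNA per cell cannot be told apart.

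SAHA changed the level of 666 genes, 5.19% of those tested. Of these, 396 rose (3.09%) and 270 fell (2.10%). Most changes were small. The median log2 change was 0.77 among risers and −0.56 among fallers, while the median over all tested genes was 0.01. The change was at least 2-fold on the log2(TPM + 1) scale for 133 risers and 54 fallers, and at least 4-fold for 11 and 8. Another 127 risers and 139 fallers moved by less than 1.5-fold. All called genes had 3 SAHA libraries on one side of the 3 DMSO libraries, as did 24.3% of all tested genes. Where this separation is stated below for a called gene, it describes the values and adds no support to the call. Of the calls, 166 risers and 90 fallers held. Leaving out any single SAHA or DMSO library lowered the counts to between 218 and 251 higher and between 126 and 163 lower.

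Genes that rose had a median of 28.6 TPM with DMSO and genes that fell 86.5, against 7.64 for all tested genes. With SAHA the medians were 49 and 56.5 TPM, so the gap was smaller there, and the DMSO levels are themselves part of the change. Of the risers 21.5% had a DMSO mean under 5 TPM, against 5.19% of the fallers and 40.7% of all tested genes. Of the fallers 47.8% stood at 100 TPM or more with DMSO, against 23.5% of the risers and 8.86% of all. By annotated type, 378 of 10583 protein-coding genes rose and 235 fell (5.79% called, against 5.19% of all tested genes). Among 243 lincRNA genes 9 rose and 1 fell (4.12% called). Both shares were near that of all tested genes.

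**Figure D1:**
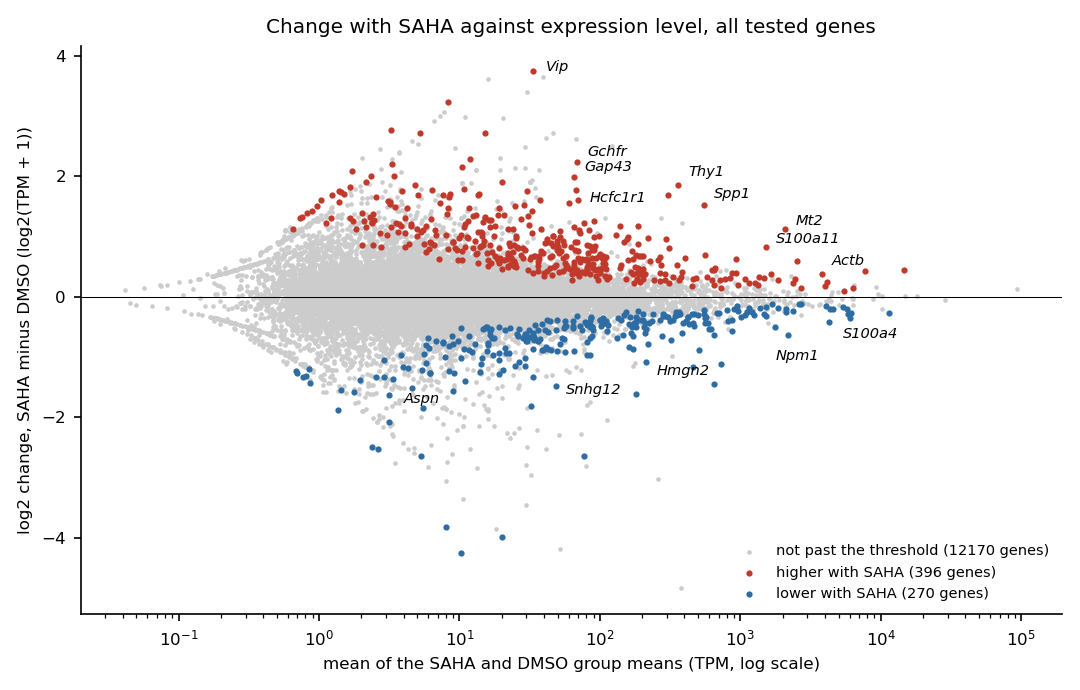
Log2 change with SAHA (vertical axis, log2(TPM + 1)) against the mean of the SAHA and DMSO group means (horizontal axis, TPM, log scale) for each of the 12836 tested genes. Red points are the 396 genes that rose and blue points the 270 that fell, grey points are the rest, with medians of 28.6 TPM (risers) and 86.5 TPM (fallers) in DMSO and 49 and 56.5 TPM in SAHA.

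Vip, which encodes vasoactive intestinal peptide, had the largest rise of any called gene. It read 5.14, 1.99 and 5.04 TPM with DMSO and 62.2, 62.6 and 64.8 with SAHA (log2 change 3.74, SE 0.27, adjusted p = 3.14e-05). The lowest SAHA library was thus far above the highest DMSO library. The promoter of Vip is shown because cyclic AMP signalling through the motif TGACGT is a textbook route to its transcription. In the RefSeq promoter (GRCm38.p6, chr10:5638968-5639267, plus strand, 250 bases before to 50 after the start) the motif occurs once, 79 bases before the start, and the capitals mark it.
Vip promoter: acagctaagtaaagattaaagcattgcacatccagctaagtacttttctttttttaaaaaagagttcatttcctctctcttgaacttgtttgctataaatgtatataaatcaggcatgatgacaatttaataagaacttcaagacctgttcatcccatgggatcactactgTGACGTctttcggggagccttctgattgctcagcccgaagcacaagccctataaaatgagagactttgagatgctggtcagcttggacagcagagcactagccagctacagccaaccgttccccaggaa
TGACGT, read on both strands, was present in 11.9% of promoters of tested genes, 11.4% of those of genes that rose and 15.9% of those of genes that fell. Promoters were matched by symbol, for 294 of the risers, 197 of the fallers and 8830 tested genes, and genes with several starts have several promoters. A match shows that the letters are there and does not show binding.

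Genes of neurites and growth cones gave the largest share of higher calls among the groups of 10 or more tested members. The share was 52.9%, against 3.09% of all tested genes. The groups were chosen with earlier results of these data known, so this rank is a description and not a test. Of 17 tested members 9 rose and 0 fell, with 11 at an unadjusted p under 0.05 and a median log2 change of 0.54. The calls of 6 members held (Gap43, Ncam1, Marcks, Dpysl3, Basp1 and Map1b). Gap43, a membrane protein of growing axon tips, read 28.8, 22 and 26.9 TPM with DMSO and 102, 108 and 105 with SAHA, a 4.06-fold rise by the group means. Ncam1, the neural cell adhesion molecule, read 37.4, 38.4 and 28.6 TPM with DMSO and 70.7, 73.9 and 64.5 with SAHA (log2 change 0.99, SE 0.12, adjusted p = 0.000918). Marcks, a substrate of protein kinase C that binds actin and membrane lipids, read 10.5, 9.46 and 11.9 and 23.8, 25.9 and 25.6 TPM (log2 change 1.17, SE 0.18, adjusted p = 0.00438). In all 3 genes every SAHA library lay above every DMSO library. Dpysl3, a growth cone protein that binds tubulin, rose from 36.2 ± 2.35 to 62.2 ± 2.29 TPM (0.77, adjusted p = 0.00175). The growth cone membrane protein Basp1 rose from 203 ± 1.98 to 311 ± 11.6 (0.61, adjusted p = 0.000219) and the microtubule-associated protein Map1b from 87.7 ± 8.96 to 128 ± 8.29 (0.54, adjusted p = 0.0066). Calls of L1cam, Nes and Nrp1 were less secure. That of L1cam was lost on leaving out DMSO library 2 or 3 or SAHA library 1 or 2 (largest adjusted p 0.0816), that of Nes on leaving out any DMSO library, any SAHA library, VPA library 2 or JQ1 library 1 or 2 (largest adjusted p 0.147) and that of Nrp1 on leaving out any DMSO library, any SAHA library, any VPA library or JQ1 library 1 (largest adjusted p 0.137).

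Of 9 markers of neuronal identity only 1 passed the filter on low values, so whether they moved as a block cannot be judged. The neuronal markers Rbfox3, Elavl4, Syt1 and Gad1 were listed at 0 in all 6 libraries. Snap25 was listed at 0 with DMSO and at 1.03, 0.69 and 0 TPM with SAHA, and Stmn2, Elavl3 and Slc17a7 were above 0 in 1 SAHA library each (0.52, 0.15 and 0.26 TPM) and in no DMSO library. Tubb3, the neuronal beta-tubulin and the only tested marker of that list, stood at 8.35, 10.5 and 9.05 TPM with DMSO and 12.8, 19.5 and 15.4 with SAHA and missed the threshold (adjusted p = 0.0532). The sum over the 9 neuronal markers was 8.35 to 10.5 TPM with DMSO and 14.4 to 20.2 with SAHA. Nrgn (neurogranin, a calmodulin-binding protein of neurons) was listed at 0 in the 3 DMSO libraries and at 4.19, 11.3 and 3.98 TPM with SAHA, and its call was lost on leaving out SAHA library 2 (largest adjusted p 0.0532). Scg5, a secretory granule chaperone, was also listed at 0 with DMSO and at 2.77, 1.24 and 1.32 TPM with SAHA, and its call was lost on leaving out any DMSO library or any SAHA library (largest adjusted p 0.111). In all, 10 tested genes were at 0 in all DMSO libraries and at 1 TPM or more in all SAHA libraries, while 11 showed the reverse.

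Tubulin genes moved in both directions. Tubb2b, a beta-tubulin of developing neurons, read 30.8, 30.1 and 37.5 TPM with DMSO and 67.7, 73.6 and 69.9 with SAHA (log2 change 1.09, SE 0.11, adjusted p = 0.000447). Tuba1b, the most abundant alpha-tubulin here, read 1351, 1407 and 1416 and 1157, 1154 and 1072 TPM (log2 change −0.30, SE 0.04, adjusted p = 0.00135). The SAHA libraries were thus all higher for the first gene and all lower for the second. Tuba1a rose from 218 ± 19.4 to 264 ± 9.22 TPM, a call that was lost on leaving out DMSO library 1 or 2, any SAHA library or VPA library 2 (largest adjusted p 0.122). Alpha-tubulin genes are near copies of each other, and reads could be split between them. The median over 11 tubulin genes was 0.03.

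**Figure D2:**
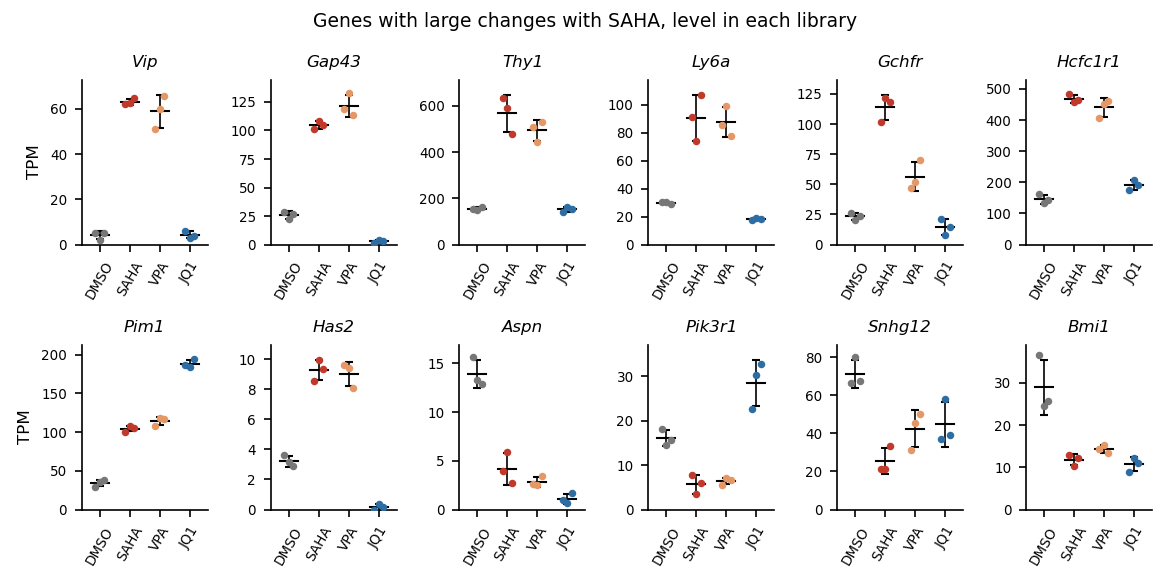
Level (TPM, linear axis from 0) of 12 genes in each of the 12 libraries, with points for libraries and black lines for the mean and SD of 3. The first 8 genes are higher in every SAHA library than in every DMSO library and the last 4 are lower, with Vip at 62.2 to 64.8 TPM against 1.99 to 5.14.

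Surface proteins held by a lipid (GPI) anchor formed another group with many rises. Among 17 tested members 5 rose and 0 fell (29.4% called, against 5.19% of all tested genes). In this group 6 had an unadjusted p under 0.05, and the median was 0.42. The count was 3 on leaving out DMSO library 1 or 2 or SAHA library 1 or 2. Ly6a (Sca-1, a surface marker of mouse stem and endothelial cells) read 30.3, 30.4 and 28.7 TPM with DMSO and 91.2, 74.2 and 107 with SAHA (log2 change 1.56, SE 0.13, adjusted p = 0.000107). Its neighbour in the family, Ly6c1, read 14.7, 21.8 and 18.5 and 51, 60 and 60.4 TPM (log2 change 1.60, SE 0.22, adjusted p = 0.00182). By the group means the rises were 3.05-fold and 3.11-fold, with no overlap between the libraries. Ly6 genes are near copies, so reads may be split between them. The third gene whose call held was Thy1, at 154, 147 and 162 and 635, 589 and 477 TPM. Prnp, the prion protein, rose from 35.9 ± 2.31 to 48.2 ± 1.9 TPM and its call was lost on leaving out DMSO library 1 or 2 or SAHA library 1 or 2 (largest adjusted p 0.0802). Ly6e rose from 55.6 ± 1.7 to 76.9 ± 8.76 and was lost on leaving out any DMSO library or SAHA library 1 or 2 (largest adjusted p 0.089).

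The class I histocompatibility genes, whose products present peptides to T cells, were partly involved. H2-D1 read 10.6, 10.7 and 16.6 TPM with DMSO and 37, 39.6 and 33.9 with SAHA (log2 change 1.5, SE 0.16, adjusted p = 0.000442), and H2-K1 read 48.1, 67.4 and 43.4 and 110.0, 117 and 114 (log2 change 1.11, SE 0.16, adjusted p = 0.00231). These 2 genes are closely alike in sequence and reads may be shared. The endoplasmic reticulum chaperone Calr rose from 757 ± 9.51 to 937 ± 48 TPM (0.31, adjusted p = 0.00235). B2m, the shared light chain, rose from 138 ± 9.14 to 170.1 ± 12.9, but the call was lost on leaving out any DMSO library, SAHA library 1 or 2, any VPA library or any JQ1 library (largest adjusted p 0.149). Psmb10, a subunit of the immunoproteasome, went the other way, from 113 ± 13.1 to 58 ± 13.8 TPM, and this call was lost on leaving out any DMSO library or SAHA library 1 or 3 (largest adjusted p 0.113). Of 16 tested genes of the group, 4 rose and 1 fell (31.2% called, against 5.19% of all tested genes). The median was 0.14. The adhesion-linked tetraspanin Cd81 rose from 57.5 ± 4.41 to 86.2 ± 1.09 TPM (0.58, adjusted p = 0.00615), the only called gene among 19 integrins and tetraspanins.

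Several secreted signals rose. Of 24 tested chemokines, cytokines and receptors, 5 rose and 0 fell (20.8% called, against 5.19% of all tested genes). In this group 7 had an unadjusted p under 0.05, the median was 0.39, and all 5 calls held. Csf1, the growth factor of macrophages, read 66.8, 63.5 and 63.6 TPM with DMSO and 124, 137 and 134 with SAHA (log2 change 1.01, SE 0.09, adjusted p = 0.000131). The monocyte chemokine Ccl2 read 55.8, 58.7 and 45.4 and 119, 137 and 126 TPM (log2 change 1.25, SE 0.13, adjusted p = 0.000376), and its neighbour Ccl7 18, 13.9 and 8.65 and 42.5, 52.1 and 45.4 (log2 change 1.76, SE 0.24, adjusted p = 0.00182). The neutrophil chemokine Cxcl5 stood at 28.7, 33.8 and 29 and 69.1, 59.9 and 56.9 TPM (log2 change 1.00, SE 0.13, adjusted p = 0.00118). In each of these genes the lowest SAHA library exceeded the highest DMSO library. Tslp, an epithelial and stromal cytokine, was near 0 with DMSO, at 0.59, 0 and 0 TPM, and at 1.49, 2.67 and 3.56 with SAHA (1.57, adjusted p = 0.0111). Osteopontin, a secreted matrix protein and cytokine encoded by Spp1, stood at 309, 259.9 and 275 TPM with DMSO and 802, 826 and 806 with SAHA (log2 change 1.53, SE 0.11, adjusted p = 3.14e-05). Leukocyte marker genes were at or near 0 in every library, with a sum of 0.52 to 3.6 TPM over 11 genes with DMSO and 1.07 to 4.32 with SAHA.

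Of the tested genes of the TGF-beta and BMP pathway 10.3% were called, against 5.19% of all tested genes. Fst (follistatin), which binds activins, read 29.1, 28.6 and 32.4 TPM with DMSO and 113, 93.3 and 109.7 with SAHA (log2 change 1.77, SE 0.32, adjusted p = 0.00931). Grem1 (gremlin), which binds bone morphogenetic proteins, read 115, 111 and 116 and 267, 261 and 247 (log2 change 1.17, SE 0.12, adjusted p = 0.000463). The SAHA libraries of both genes stood above all DMSO libraries. The follistatin-related gene Fstl1 rose from 95.7 ± 6.22 to 121 ± 7.96 TPM, and its call was lost on leaving out any DMSO library, SAHA library 2 or 3, VPA library 1 or JQ1 library 1 or 3 (largest adjusted p 0.135). These were the 3 called genes of 29 tested members, of which 7 had an unadjusted p under 0.05, and the median was 0.08.

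Some genes of matrix turnover were called, most of them higher. Plat, tissue plasminogen activator, rose from 1.5 ± 1.27 to 5.48 ± 1.41 TPM, and that call was lost on leaving out DMSO library 1 or 2, any SAHA library, VPA library 1 or 2 or JQ1 library 3 (largest adjusted p 0.12). The membrane protease Adam15 rose from 33.6 ± 3.47 to 65.6 ± 10.6 TPM (0.93, adjusted p = 0.00457). Of 22 tested proteases and inhibitors 4 rose and 0 fell (18.2% called, against 5.19% of all tested genes). In this group 10 had an unadjusted p under 0.05, and the median was 0.33. The number of rises was 2 on leaving out DMSO library 1 or SAHA library 1 or 3. Has2, the synthase of the matrix sugar hyaluronan, read 3.6, 3.13 and 2.89 TPM with DMSO and 8.55, 9.93 and 9.35 with SAHA (log2 change 1.29, SE 0.18, adjusted p = 0.00243), and the hyaluronan-binding proteoglycan Vcan (versican) 33, 31.5 and 27.4 and 63.7, 65.1 and 59.1 (log2 change 1.01, SE 0.13, adjusted p = 0.00148). By the group means these rises were 2.89-fold and 2.04-fold. Of the 14 tested proteoglycans and hyaluronan synthases 3 rose and 1 fell (28.6% called), with a median of 0.15. The collagen-binding proteoglycan Aspn (asporin) was the one that fell, from 15.6, 13.3 and 12.9 TPM (DMSO) to 3.98, 5.96 and 2.68 (SAHA) (−1.56, adjusted p = 0.0066). Of 16 tested collagen genes only Col3a1 was called (log2 change 0.59, adjusted p = 0.028), and the call was lost on leaving out any DMSO library or SAHA library 1 or 2 (largest adjusted p 0.0956).

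Among genes of the actin cytoskeleton, rises outnumbered falls. Of 35 tested members 9 rose and 2 fell (31.4% called, against 5.19% of all tested genes). The median was 0.17, and 8 of the rises held. The cytoplasmic actins moved apart. Actb (beta-actin) read 3314, 3239 and 3302 TPM with DMSO and 4104, 4233 and 4523 with SAHA (log2 change 0.38, SE 0.04, adjusted p = 0.000861), whereas Actg1 (gamma-actin) read 739, 712 and 681 and 491, 498 and 482 (log2 change −0.53, SE 0.04, adjusted p = 7.95e-05). All SAHA libraries lay above all DMSO libraries for Actb and below them for Actg1. Tmsb4x, which binds actin monomers, rose from 732 ± 15.9 to 1137 ± 90 TPM (0.63, adjusted p = 0.000277), and the related Tmsb10 from 1441 ± 58.7 to 1881 ± 63.9 (0.38, adjusted p = 0.00111). Gelsolin (Gsn), which severs actin filaments, read 43.9, 52.2 and 47.2 TPM with DMSO and 91.5, 90.2 and 88.9 with SAHA (log2 change 0.91, SE 0.08, adjusted p = 0.000212). The nonmuscle myosin heavy chain Myh10 rose from 133 ± 5.56 to 208 ± 27.5 TPM (0.63, adjusted p = 0.00776), and the intermediate filament gene Vim from 1311 ± 20.5 to 1630.5 ± 29.5 (0.31, adjusted p = 0.000282). Tagln, an actin-binding protein of smooth muscle, was the other gene that fell, from 20.1, 18.5 and 20 to 9.62, 10.1 and 7.99 TPM (−1.01, adjusted p = 0.0135), and its call was lost on leaving out DMSO library 1 or SAHA library 3 (largest adjusted p 0.0529). Acta2, smooth muscle actin, stood at 51.7 ± 7 and 36.3 ± 2.64 TPM and missed the threshold (adjusted p = 0.0691).

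The S100 proteins bind calcium, and the annexins bind membranes when calcium is present. In this family 6 of 18 tested genes rose and 1 fell (38.9% called, against 5.19% of all tested genes). The median was 0.44. S100a11 read 1087, 1105 and 1072 TPM with DMSO and 1967, 2005 and 1837 with SAHA (log2 change 0.83, SE 0.04, adjusted p = 1.68e-06). S100a6 read 6443, 6463 and 6748 and 8886, 8891 and 8704 TPM (log2 change 0.43, SE 0.03, adjusted p = 2.46e-05). S100a4, next to S100a6 in abundance, went down, from 6632, 6740.4 and 6786 to 5778, 5488 and 5422 TPM (log2 change −0.27, SE 0.04, adjusted p = 0.00146). The SAHA and DMSO libraries did not overlap for any of these 3 genes. S100a10 rose from 315 ± 43.5 to 489 ± 28.8 TPM (0.64, adjusted p = 0.00291), S100a13 from 60.7 ± 10.2 to 121 ± 10.6 (0.99, adjusted p = 0.00111) and Anxa6 from 8.17 ± 0.997 to 22.1 ± 4.37 (1.32, adjusted p = 0.00231). The call of S100a1 was lost on leaving out DMSO library 1 or 3 or SAHA library 3 (largest adjusted p 0.0589).

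**Figure D3:**
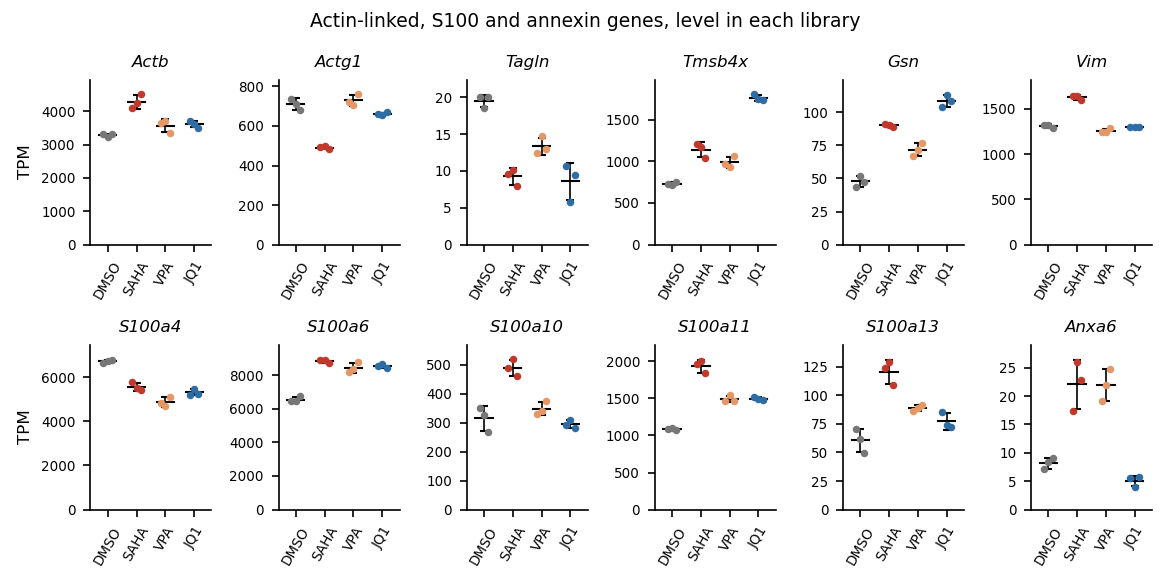
Level (TPM, linear axis from 0) of 12 actin-linked, S100 and annexin genes in each library, with points for libraries and black lines for the mean and SD of 3. Actg1, Tagln and S100a4 are lower in all 3 SAHA libraries than in all 3 DMSO libraries, and the other 9 genes are higher.

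Targets of the transcriptional coactivator YAP, which responds to cell shape and tension, rose in 4 of 23 tested cases, and 0 fell (7 at an unadjusted p under 0.05, median 0.14). The share called was 17.4%, against 5.19% of all tested genes. The log2 changes ran from −0.72 to 0.99, so the list did not move as a whole. For 5 members all SAHA libraries lay above all DMSO libraries, and for 4 below them. Of all tested genes 12.9% and 11.4% did so. The count was 2 on leaving out DMSO library 2 or SAHA library 1. Ccn2, a matricellular growth factor, read 92.5, 119 and 107 TPM with DMSO and 202, 219 and 212 with SAHA (log2 change 0.99, SE 0.10, adjusted p = 0.000411). Ankrd1, a nuclear ankyrin-repeat protein, rose from 60.6 ± 7.07 to 109 ± 8.37 TPM (0.84, adjusted p = 0.0013). Both calls held, and those of Axl and Ajuba did not. Axl was lost on leaving out DMSO library 1 or 2 or SAHA library 1 (largest adjusted p 0.0564) and Ajuba on leaving out DMSO library 2 or 3, any SAHA library, VPA library 2 or any JQ1 library (largest adjusted p 0.123).

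Metallothioneins are small cysteine-rich proteins that bind zinc and copper. Mt2 read 1351, 1236 and 1337 TPM with DMSO and 2939.9, 2857 and 2741 with SAHA (log2 change 1.12, SE 0.04, adjusted p = 3.63e-07). Mt1 read 2031, 1999 and 1996 and 3102, 3006 and 2999 TPM (log2 change 0.60, SE 0.04, adjusted p = 2.13e-05). The 2 genes lie beside each other and rose together, Mt2 2.18-fold and Mt1 1.51-fold by the group means. Mt3 was listed at 0 in the DMSO libraries and at 1.3, 4.56 and 1.62 TPM with SAHA, and its call was lost on leaving out any DMSO library, SAHA library 2 or 3 or JQ1 library 3 (largest adjusted p 0.112). Zinc transporters gave 1 further call, Slc39a1, at 43.8 ± 1.52 and 58.4 ± 1.57 TPM, lost on leaving out any DMSO library or any SAHA library (largest adjusted p 0.0995). The count for the 20 tested genes was 4 higher and 0 lower (20% called, against 5.19% of all tested genes). In this group 6 had an unadjusted p under 0.05, and the median was 0.01. The number of rises was 2 on leaving out any DMSO library or SAHA library 2 or 3. The promoters of Mt1 and Mt2 are shown because the genes moved together and metallothionein genes are known for sites of the zinc-sensing factor MTF1. Only the form TGCGCNC of the core of such sites was searched. Other forms were not marked, so the matches are not a full count of sites. Capitals mark TGCGCNC on either strand in the RefSeq promoters (GRCm38.p6, plus strand). It begins 128 bases before and 4 bases after the start of Mt2 (chr8:94172368-94172667) and 20 bases after the start of Mt1 (chr8:94178839-94179138).
Mt2 promoter: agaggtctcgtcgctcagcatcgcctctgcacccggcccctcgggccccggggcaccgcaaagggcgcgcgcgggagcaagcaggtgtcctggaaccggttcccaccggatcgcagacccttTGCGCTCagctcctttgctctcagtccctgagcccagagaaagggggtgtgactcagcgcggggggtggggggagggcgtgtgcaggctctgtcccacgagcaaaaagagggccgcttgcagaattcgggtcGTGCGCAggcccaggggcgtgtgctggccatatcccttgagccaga
Mt1 promoter: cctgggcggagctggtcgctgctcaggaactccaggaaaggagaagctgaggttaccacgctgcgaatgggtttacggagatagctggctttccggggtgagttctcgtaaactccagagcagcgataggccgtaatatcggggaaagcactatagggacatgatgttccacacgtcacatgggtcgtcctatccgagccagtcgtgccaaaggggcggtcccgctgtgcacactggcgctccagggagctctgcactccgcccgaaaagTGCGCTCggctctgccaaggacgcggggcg
This form of the core occurred in 26.8% of promoters of tested genes, 24.0% of promoters of risers and 31.4% of those of fallers.

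The cell cycle inhibitor Cdkn1a, a classical target of HDAC inhibition, read 26.4, 22.1 and 22 TPM with DMSO and 47.5, 59.7 and 50.9 with SAHA (log2 change 1.13, SE 0.15, adjusted p = 0.00146). All SAHA libraries were above all DMSO libraries. Its promoter is shown because GC boxes (GGGCGG) bound by Sp1 are the textbook route to this induction in human cells. RefSeq lists 2 starts. The box is absent from the window of the one at chr17:29090729-29091028 and occurs 104 and 46 bases before the other (chr17:29093519-29093818, plus strand, GRCm38.p6), where capitals mark it on either strand.
Cdkn1a promoter: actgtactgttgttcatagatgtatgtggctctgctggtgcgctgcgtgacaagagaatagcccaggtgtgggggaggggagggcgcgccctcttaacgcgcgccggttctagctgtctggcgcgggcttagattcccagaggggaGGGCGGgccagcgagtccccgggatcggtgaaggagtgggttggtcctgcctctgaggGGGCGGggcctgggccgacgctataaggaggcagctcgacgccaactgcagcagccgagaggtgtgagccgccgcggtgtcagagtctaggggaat
GC boxes were common in promoters of all kinds of tested genes, at 64.0% of all tested, 62.4% of the risers and 64.0% of the fallers. Among G1 cyclins, their kinases and E2F factors, 3 of 23 rose and 0 fell (13% called, against 5.19% of all tested genes). In this group 5 had an unadjusted p under 0.05. The number of rises was 1 on leaving out DMSO library 2 or 3 or SAHA library 1 or 2. Ccnd1, cyclin D1, read 131, 140.1 and 142 TPM with DMSO and 221, 228 and 223 with SAHA (log2 change 0.70, SE 0.07, adjusted p = 0.000368), so that a cyclin that drives G1 and an inhibitor of its kinases were both higher. The calls of Ccnd3 and E2f2 did not hold. Ccnd3 was lost on leaving out DMSO library 2 or 3 or SAHA library 1 or 2 (largest adjusted p 0.0743) and E2f2 on leaving out any of the 12 libraries (largest adjusted p 0.132).

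Several signalling genes outside these groups rose strongly. Pim1, a survival kinase induced by cytokines, read 29.4, 35.3 and 37.6 TPM with DMSO and 101, 108 and 105 with SAHA (log2 change 1.60, SE 0.09, adjusted p = 4.25e-06). Hcfc1r1, a regulator of the transcriptional cofactor HCF-1, read 162, 134 and 142 and 483, 458 and 465 TPM (log2 change 1.68, SE 0.08, adjusted p = 2.29e-06). Pde4b, which degrades cyclic AMP, read 3.79, 5.9 and 3.56 and 18.1, 16.6 and 17.2 TPM (log2 change 1.78, SE 0.23, adjusted p = 0.00127). Each was higher in all 3 SAHA libraries, with no overlap. Ramp3, a partner of the adrenomedullin receptor of endothelial cells, rose from 15.4 ± 2.01 to 39 ± 3.75 TPM (1.29, adjusted p = 0.00148). Add3, an adducin of the membrane skeleton, rose from 3.46 ± 0.818 to 13.6 ± 2.47 (1.71, adjusted p = 0.00111) and Flywch2, a nuclear protein of little known function, from 1.55 ± 0.427 to 8.12 ± 0.897 (1.85, adjusted p = 0.000761). U90926, annotated as protein-coding, rose from 4.17, 1.62 and 4.66 TPM to 25.6, 25 and 30 (2.71, adjusted p = 0.00178). Among Kruppel-like factors Klf5 rose from 68 ± 4.67 to 106 ± 2.48 TPM (0.64, adjusted p = 0.00179). The call of Klf9 was lost on leaving out DMSO library 1 or 2 or SAHA library 1 (largest adjusted p 0.0546).

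The enzymes of metabolism gave scattered changes. In the polyamine pathway 4 of 11 genes rose and 1 fell (45.5% called, against 5.19% of all tested genes). The median was 0.27. Sat1, which acetylates spermidine and spermine, read 168, 148 and 157 TPM with DMSO and 242, 250.1 and 259.9 with SAHA (log2 change 0.67, SE 0.07, adjusted p = 0.000411), and spermine synthase (Sms) 427, 407 and 453 and 647, 683 and 765 (log2 change 0.70, SE 0.09, adjusted p = 0.00146). Rises of the upstream enzymes Odc1 and Amd1 and the fall of spermidine synthase (Srm) were less secure, and the rises numbered 2 on leaving out any DMSO library or SAHA library 1 or 2. Odc1 was lost on leaving out any DMSO library or SAHA library 1 or 2 (largest adjusted p 0.113), Amd1 on leaving out any DMSO library or any SAHA library (largest adjusted p 0.119) and Srm on leaving out DMSO library 1 or 3 or SAHA library 1 (largest adjusted p 0.0656). Gchfr, the feedback regulator of tetrahydrobiopterin synthesis, read 26.2, 20.3 and 23.9 TPM with DMSO and 102, 122 and 118 with SAHA and was the only called gene of 7 in its pathway. Ddah2, of the family that breaks down methylated arginines, rose from 17.2 ± 4.41 to 44.2 ± 3.36 TPM (1.34, adjusted p = 0.00102). Eno3, the muscle form of the glycolytic enzyme enolase, read 7.2, 7.04 and 9.49 and 36.6, 29.1 and 30.8 TPM (log2 change 1.90, SE 0.15, adjusted p = 5.23e-05). Upp1 and Cda, which break down and salvage pyrimidine nucleosides, rose from 0.56 ± 0.604 to 6.05 ± 2.05 (2.21, adjusted p = 0.00514) and from 9.27 ± 1.02 to 19.9 ± 4.97 (1.00, adjusted p = 0.0103), while the mitochondrial folate enzyme Mthfd2 fell from 119 ± 9.48 to 84 ± 3.22 (−0.49, adjusted p = 0.0111).

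Antioxidant genes split. Gsto1, a glutathione transferase, read 87.7, 75.1 and 89.7 TPM with DMSO and 208, 208 and 163 with SAHA (log2 change 1.18, SE 0.11, adjusted p = 0.000282). The superoxide dismutase Sod1 read 704, 730.1 and 757 and 522, 535 and 462 TPM (log2 change −0.53, SE 0.07, adjusted p = 0.00111), and the glutathione peroxidase Gpx1 fell from 213 ± 7.49 to 149.6 ± 0.326 (−0.51, adjusted p = 0.00777). Of 39 tested genes of the group 5 rose and 3 fell (20.5% called, against 5.19% of all tested genes). The median was 0.13. The rises numbered 3 on leaving out DMSO library 1 or SAHA library 3 and 2 on leaving out DMSO library 2. They numbered 1 on leaving out DMSO library 3 or SAHA library 1 or 2. Tfrc, the transferrin receptor that brings iron into cells, fell from 67.8, 61.8 and 64 TPM to 37, 32.2 and 33.4 (log2 change −0.90, SE 0.09, adjusted p = 0.000261). In the respiratory chain 7 of 77 tested subunits rose and 1 fell (10.4% called), with a median of 0.08. The rises numbered 4 on leaving out DMSO library 2 or 3, SAHA library 2, VPA library 2 or JQ1 library 2. They numbered 3 on leaving out DMSO library 1 or SAHA library 1 or 3. The rises of Ndufv3, from 148 ± 16.7 to 292 ± 31.7 TPM (0.98, adjusted p = 0.00148), and Uqcrh, from 553 ± 17.9 to 755 ± 7.6 (0.45, adjusted p = 0.00102), held. Etfb, which passes electrons from fatty acid oxidation, rose from 145 ± 12.2 to 232 ± 18 (0.67, adjusted p = 0.00231), while Slc25a5, the ADP and ATP exchanger of mitochondria, fell from 211 ± 11.6 to 134 ± 13.5 (−0.66, adjusted p = 0.00231).

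The nucleolus makes ribosomes, guided by small nucleolar RNAs (snoRNAs) that are released from introns of host genes. Of 18 tested host genes 0 rose and 5 fell (27.8% called, against 5.19% of all tested genes), 11 had an unadjusted p under 0.05, and the median was −0.32. The count was 3 on leaving out DMSO library 1. Gas5 read 205, 221 and 195 TPM with DMSO and 131, 116 and 101 with SAHA (log2 change −0.83, SE 0.13, adjusted p = 0.00516), Zfas1 446, 512 and 428 and 336, 288 and 290.4 (log2 change −0.60, SE 0.10, adjusted p = 0.00716) and Snhg12 66.5, 79.9 and 67.3 and 21.5, 21.5 and 33.2 (log2 change −1.48, SE 0.23, adjusted p = 0.00401). The SAHA libraries of all 3 genes lay below the DMSO libraries. Snhg1 was lost on leaving out DMSO library 1 or 2 or SAHA library 3 (largest adjusted p 0.0553) and Snhg8 on leaving out DMSO library 1 or 3 or SAHA library 1 or 2 (largest adjusted p 0.0987). Of 111 snoRNA genes themselves 0 rose and 9 fell (8.11% called), with 4 higher and 17 lower at an unadjusted p under 0.05 and a median of −0.30. Snora81 was at 93.5, 127 and 170.3 TPM with DMSO and 45, 8.28 and 18.5 with SAHA (−2.65, adjusted p = 0.0101). Values of snoRNAs are uncertain, because they have copies elsewhere in the genome and lie inside other genes. The libraries also read messenger RNA from transcript 3′ ends, and TPM divides by gene length, which is short for these genes. The counts above are therefore not a measure of mature snoRNA levels.

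Of the nucleolar proteins of ribosome synthesis 5.71% were called, against 5.19% of all tested genes. All of these calls were falls, and 2.10% of all tested genes fell. For 16 members all SAHA libraries lay below all DMSO libraries, and for 5 above them. Of all tested genes 11.4% and 12.9% did so. Of 70 members 0 rose and 4 fell (15 at an unadjusted p under 0.05, median −0.09), and the count was 2 on leaving out any DMSO library or SAHA library 2 or 3. Npm1 (nucleophosmin) read 2691, 2729 and 2582 TPM with DMSO and 1750.2, 1775 and 1622 with SAHA (log2 change −0.64, SE 0.05, adjusted p = 3.14e-05), and Ncl (nucleolin) 985, 998 and 963 and 726, 771 and 764 (log2 change −0.38, SE 0.05, adjusted p = 0.00243). Neither gene had overlapping groups. Gnl3 was lost on leaving out any DMSO library or SAHA library 2 or 3 (largest adjusted p 0.0989) and Npm3 on leaving out any DMSO library, any SAHA library or VPA library 2 (largest adjusted p 0.102). Exosc8, a subunit of the RNA-degrading exosome, fell from 222 ± 13.6 to 122 ± 14.2 TPM (−0.86, adjusted p = 0.00967), and Trmt112, the partner of several RNA and protein methyltransferases, from 340.1 ± 25 to 214 ± 16 (−0.66, adjusted p = 0.00169). Hsp90ab1, the constitutive HSP90 chaperone and among the most abundant transcripts that fell, read 4869, 4913 and 4803 TPM with DMSO and 3649, 3687 and 3594 with SAHA (log2 change −0.42, SE 0.02, adjusted p = 4.25e-06).

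Few genes of the acetylation and Polycomb groups were called, at 2.22% of 45 and 3.23% of 31, against 5.19% of all tested genes. Among the chromatin genes named here, the calls that held were falls. The deacetylases that SAHA inhibits were themselves not called. Hdac1 stood at 65.4 ± 2.82 TPM with DMSO and 74.6 ± 5.91 with SAHA (adjusted p = 0.299) and Hdac2 at 82.7 ± 17.5 and 92.5 ± 8.79 (adjusted p = 0.56). Hdac6, the cytoplasmic tubulin deacetylase, had its SAHA libraries above the DMSO libraries, at 6.41, 12.4 and 4.69 against 2.44, 4.57 and 3.88 TPM, and missed the threshold (adjusted p = 0.127). Hmgn2, which binds nucleosomes and loosens them, read 306, 243 and 325 TPM with DMSO and 145, 125 and 136 with SAHA (log2 change −1.09, SE 0.12, adjusted p = 0.000463). Bmi1, a subunit of Polycomb repressive complex 1, read 36.5, 24.5 and 25.8 and 12.8, 10.3 and 12.2 TPM (log2 change −1.21, SE 0.18, adjusted p = 0.00267) and was the only called gene of 31 in the Polycomb and DNA methylation group. Eny2, a subunit of the SAGA coactivator, fell from 783 ± 72.2 to 506 ± 50.3 (−0.63, adjusted p = 0.00102). Of 45 acetyltransferases, sirtuins and subunits of HDAC complexes 0 rose and 1, Mbd3, fell, from 66.2 ± 5.78 to 38.4 ± 7.15 TPM, with 6 at an unadjusted p under 0.05. The call of Mbd3 was lost on leaving out DMSO library 1 or 3 or SAHA library 1 or 3 (largest adjusted p 0.0718). H2ax, the histone variant phosphorylated at DNA breaks, fell from 32.1 ± 1.65 to 20.1 ± 1.13 (−0.65, adjusted p = 0.00862). Variant and linker histones had a larger share of calls, with 1 rise and 2 falls among 11 tested genes (27.3%). The rise was lost on leaving out any DMSO library or any SAHA library. The falls numbered 1 on leaving out any of the 12 libraries other than DMSO library 3.

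Called genes of DNA replication and repair were few, and all of them fell. Of all tested genes 2.10% fell. Of 45 tested genes of replication origins and forks 0 rose and 3 fell (6.67% called, against 5.19% of all tested genes, 8 at an unadjusted p under 0.05, median −0.12). For 11 of the 45 all SAHA libraries lay below all DMSO libraries, and for 0 above them. Of all tested genes 11.4% and 12.9% did so. None of the 3 calls held, and the count was 1 on leaving out DMSO library 2 or 3 or SAHA library 1 or 2. Lig1, the ligase of lagging strands, read 242, 253 and 260.1 TPM with DMSO and 148, 161 and 187 with SAHA (−0.61, adjusted p = 0.0133), and its call was lost on leaving out DMSO library 3 or SAHA library 1 or 2 (largest adjusted p 0.0526). Mcm5, a subunit of the replicative helicase, fell from 48.9 ± 3.56 to 32.8 ± 0.139 TPM (−0.56, adjusted p = 0.0126), lost on leaving out DMSO library 2 (largest adjusted p 0.0535). Rfc5, of the clamp loader, was lost on leaving out DMSO library 2 or 3 or any SAHA library (largest adjusted p 0.101). Among 47 repair and checkpoint genes, Nbn, of the complex that senses double-strand breaks, was the only call (2.13%), at 28.7, 25.1 and 22.2 TPM with DMSO and 11.3, 13.8 and 13.3 with SAHA (−0.93, adjusted p = 0.0107). The proliferation marker Mki67, at 20.1 ± 1.12 TPM with DMSO and 14.8 ± 1.17 with SAHA, missed the threshold (adjusted p = 0.0614), although its groups did not overlap. In signalling, Pik3r1, the regulatory subunit of PI3-kinase, read 18.2, 14.6 and 15.7 and 7.71, 3.47 and 5.93 TPM (−1.40, adjusted p = 0.00641). Rdh10, which oxidises retinol towards retinoic acid, fell from 13.5, 11.3 and 11.7 TPM to 4.44, 4.93 and 4.41 (−1.23, adjusted p = 0.0105), and Cyp26b1, which degrades retinoic acid, from 5.42 ± 0.74 to 2.3 ± 0.647, lost on leaving out any DMSO library or SAHA library 1 or 2 (largest adjusted p 0.0945).

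Large families outside these groups had between 1.57% and 6.06% of their tested members called, against 5.19% of all genes. Of 255 Zfp genes 3 rose and 1 fell, and of 167 solute carriers 4 rose and 3 fell. Mitochondrial ribosomal proteins gave 2 and 1 of 78, proteasome subunits 1 and 1 of 36, aminoacyl-tRNA synthetases 2 and 0 of 33, and kinesins 0 and 1 of 25. Their medians lay between −0.07 and 0.03. Counts this small changed with single libraries: of the calls in these families only the rises of Psmd8, from 125 ± 12.3 to 212 ± 24.8 TPM, and Slc25a39, from 157 ± 13.8 to 218 ± 11.6, and the fall of Slc25a5 held.

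**Figure D4:**
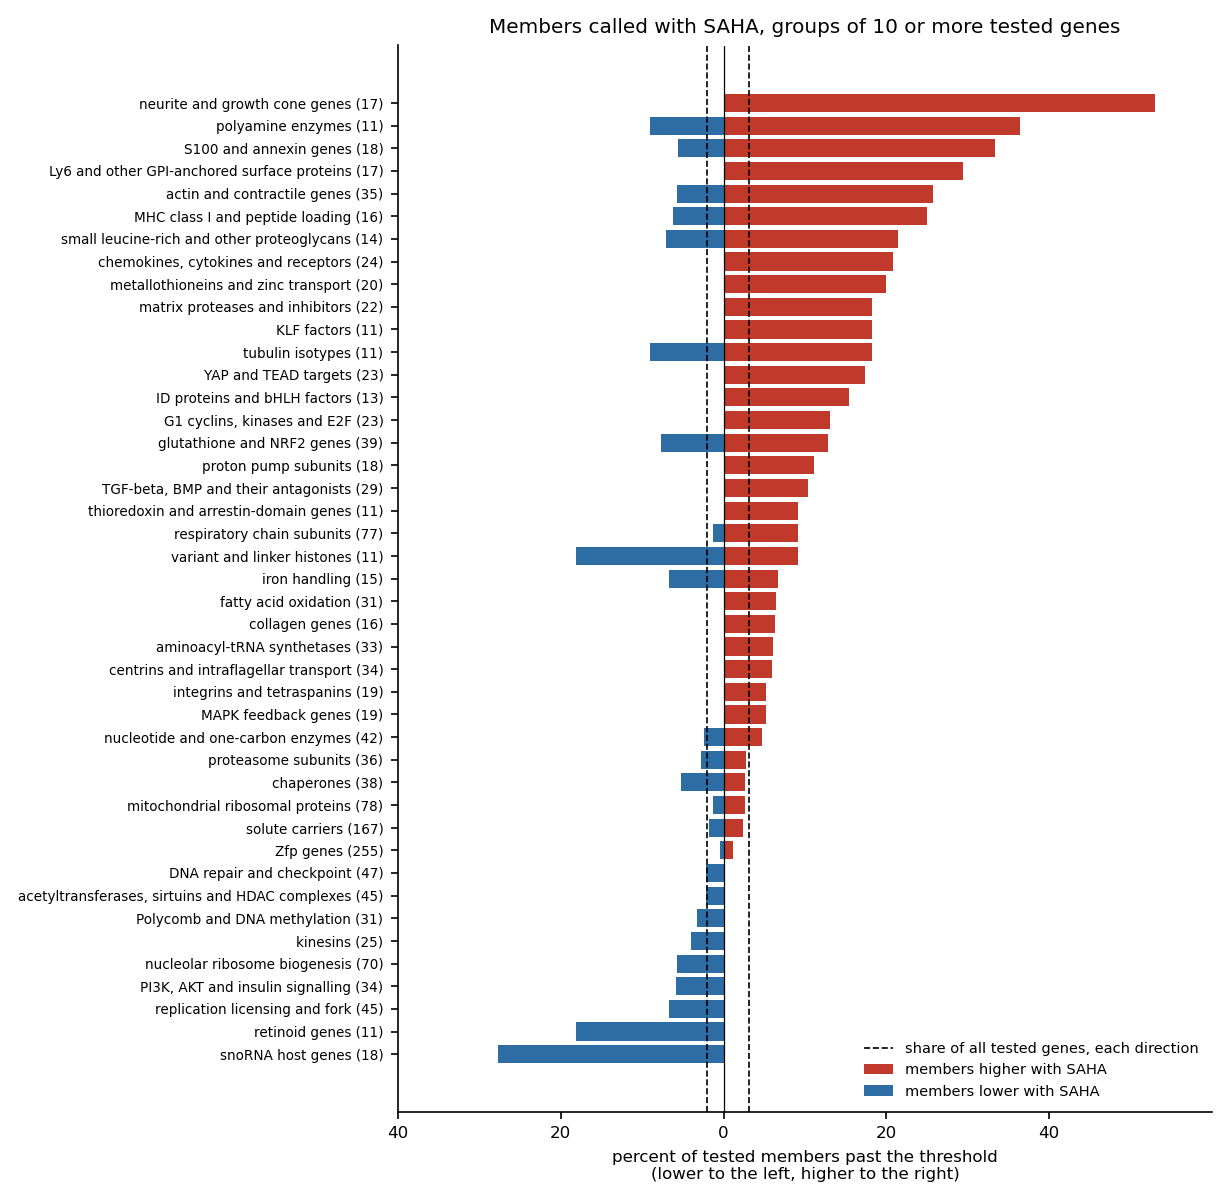
Share of the tested members called higher (red, right) or lower (blue, left) with SAHA in each gene group of 10 or more tested members, in percent, with the number tested in brackets. Dashed lines mark the shares over all tested genes (3.09% higher and 2.10% lower), and the neurite and growth cone genes reach furthest to the right and the snoRNA host genes furthest to the left. The groups were chosen with earlier results of these data known, so their order is no test.

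VPA, a branched fatty acid, is an HDAC inhibitor of another chemical class, so the direct difference between SAHA and VPA was tested. Dose and time differ (1 µM for 24 h against 2 mM for 36 h), and the values below compare these treatments, not the compounds at matched exposure. Only 58 genes differed (0.452% of those tested), 34 higher and 24 lower with SAHA. The count rested on single libraries, falling to 38, 18 and 15 without SAHA library 1, 2 or 3 and to 21, 32 and 21 without VPA library 1, 2 or 3. The split depended on scaling, with 73 higher and 21 lower under median-of-ratios scaling. It turned under other settings of the fit. Fitting the 2 groups alone gave 9 higher and 10 lower, and moderation without a trend gave 3 and 11. Of the 396 genes that SAHA raised against DMSO, 22 differed from VPA, and 21 of these were higher with SAHA than with VPA. Of the 270 that SAHA lowered, 11 differed from VPA, and 8 of these were lower with SAHA. The same SAHA libraries picked these genes and entered this comparison. Both splits therefore lean by selection towards SAHA lying further from DMSO, and the size of this lean was not tested. A gene that missed the threshold is not shown to be alike under the 2 drugs: the log2 difference for Vip was 0.11 (95% interval −0.50 to 0.71), for Gap43 −0.21 (95% interval −0.74 to 0.33) and for Thy1 0.19 (95% interval −0.04 to 0.43).

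The differences that held without any 1 library numbered 8 higher and 4 lower. Of the 6 of these named next, only Cxcl5 also kept its call under all 12 other settings. Cxcl5 was higher with SAHA, at 69.1, 59.9 and 56.9 TPM, than with VPA, at 26.2, 27.5 and 28.5 (log2 difference 1.14, SE 0.13, adjusted p = 0.00258), and with VPA it lay near its DMSO level of 30.5 ± 2.9. Actg1 was lower with SAHA (491, 498 and 482 TPM) than with VPA (722, 708 and 763; log2 difference −0.57, SE 0.04, adjusted p = 0.000297), whose libraries overlapped those with DMSO (739, 712 and 681). H1f0, a linker histone of differentiated cells that responds to HDAC inhibitors, was lower with SAHA (73.7, 66.9 and 69.2 TPM) than with VPA (108, 105 and 109; log2 difference −0.61, SE 0.07, adjusted p = 0.00234), with DMSO below both at 56.7, 58 and 57.1. Vim was higher with SAHA than with VPA, 1630.5 ± 29.5 against 1256 ± 24.8 TPM (0.38, adjusted p = 0.000384), and so was S100a11, 1936 ± 88.1 against 1489.7 ± 43.9 (0.38, adjusted p = 0.00186). The interferon-related regulator Ifrd1 stood at 644 ± 23.6 and 437 ± 28.7 TPM (0.56, adjusted p = 0.00278). Other differences depended on single libraries. Spp1 was at 811 ± 13.1 TPM with SAHA and 457 ± 26.4 with VPA (0.83, adjusted p = 0.0132) and was lost on leaving out SAHA library 2 or 3 (largest adjusted p 0.0668). Csf1, at 132 ± 6.82 and 89.2 ± 3.31 TPM (0.56, adjusted p = 0.0235), was lost on leaving out SAHA library 2 or 3 or any VPA library (largest adjusted p 0.111). Eno3, at 32.2 ± 3.95 and 15.2 ± 0.601 (1.03, adjusted p = 0.016), was lost on leaving out SAHA library 1 or 3 or any VPA library (largest adjusted p 0.0722). Ccn2, at 211 ± 8.84 and 132 ± 1.46 (0.67, adjusted p = 0.0201), was lost on leaving out SAHA library 2 or 3 or any VPA library (largest adjusted p 0.0912). Junb, a subunit of the AP-1 factor, at 53 ± 5.12 and 32.7 ± 1.2 (0.67, adjusted p = 0.0154), was lost on leaving out SAHA library 2 or 3 or VPA library 1 or 2 (largest adjusted p 0.0767). Cavin2, a coat protein of caveolae, at 97.7 ± 6.46 and 61.5 ± 1.76 (0.66, adjusted p = 0.0284), was lost on leaving out any SAHA library or any VPA library (largest adjusted p 0.126).

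**Figure D5:**
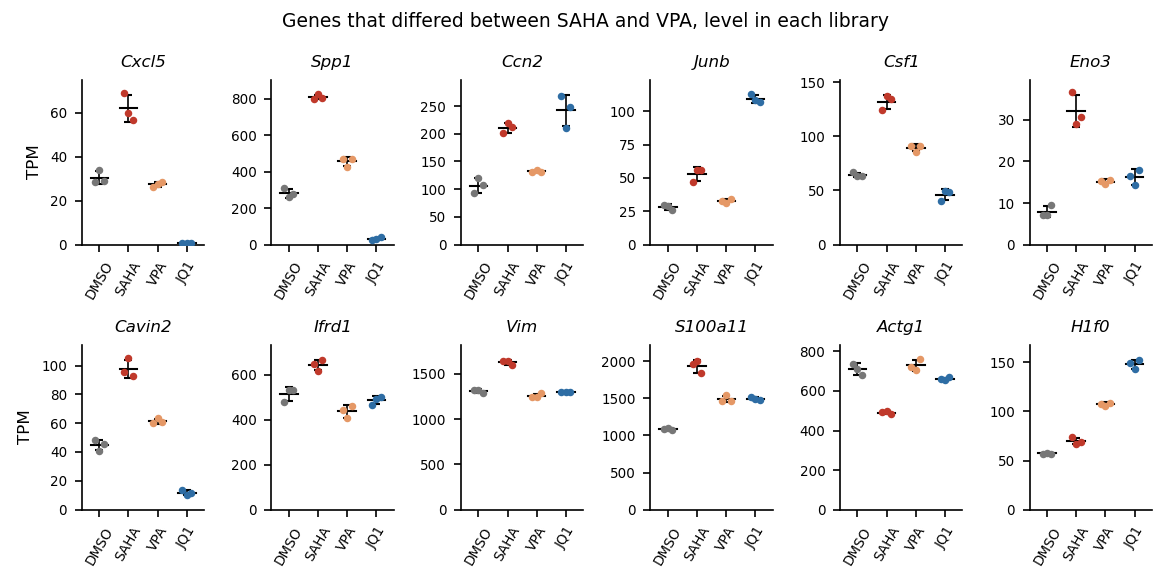
Level (TPM, linear axis from 0) of 12 genes that differed between SAHA and VPA in each library, with points for libraries and black lines for the mean and SD of 3. Actg1 and H1f0 are lower with SAHA than with VPA and the other 10 are higher, with Cxcl5 at 56.9 to 69.1 TPM against 26.2 to 28.5.

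Against JQ1, which displaces BET proteins from acetylated histones, 4270 genes differed from SAHA (33.3%), with 2737 higher and 1533 lower with SAHA. Scaling shifted this split, to 2281 and 2010 under median-of-ratios scaling and 2214 and 2059 under quantile normalization. The times differed here too (24 h and 36 h). Of the 396 genes raised by SAHA 287 differed from JQ1, 232 of them higher with SAHA than with JQ1 and 55 lower. Of the 270 lowered genes 177 differed, 104 lower with SAHA than with JQ1 and 73 higher. As with VPA, the SAHA libraries both picked these genes and entered the comparison, so the splits lean by selection. Some genes that SAHA raised lay below every DMSO library with JQ1. Has2 stood at 0, 0.35 and 0.15 TPM with JQ1 (SAHA minus JQ1 3.15, adjusted p = 3.44e-07), Gap43 at 1.21, 4.02 and 3.24 (4.88, adjusted p = 9.10e-08), Spp1 at 27.6, 30.9 and 39.5 (4.61, adjusted p = 3.35e-10) and Cxcl5 at 0.61, 0.82 and 0.83 (5.16, adjusted p = 3.35e-10). Others were higher with JQ1 than with SAHA, such as Pim1 at 187, 184 and 194 TPM (−0.84, adjusted p = 3.21e-05) and Tmsb4x at 1806, 1749.9 and 1734 (−0.64, adjusted p = 1.35e-05). SAHA, VPA and JQ1 share the DMSO libraries as their control, so the direct differences are given in place of a likeness between responses.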

How the data were processed

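Libraries were made with a 3′ tag kit (QuantSeq FWD) per the labels' protocols. The authors deposited TPM values, and per the file headers the column names end as those of RSEM gene tables do. The submitters' processing notes also name bcl2fastq 2.17, STAR and the build mm39. Division by gene length in TPM assumes reads along the whole transcript, which 3′ tags are not, and the depth of the libraries is unknown. A deposited sheet that pairs SAHA with DMSO was not used, because its identifiers stand 1 row off.

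The 12836 genes reaching 1 TPM in 3 or more of the 12 libraries entered a limma fit (version 3.58.1 on R 4.3.3, eBayes with trend) of log2(TPM + 1). It estimated the mean of each of the 4 groups, left 8 degrees of freedom and was tested on simulated data. A fold on this scale understates changes of low genes. Tests were two-sided. Of the tested genes, 10988 had a symbol in the matrix and 1792 were named from GENCODE M21. Promoters are from RefSeq on GRCm38.p6, not the submitters' build. Python 3.11.15 and matplotlib 3.10.9 drew the figures.

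Members and the 50 gene lists were chosen with earlier results of these data known. Named genes are the largest called changes (20 in each direction from 5 TPM and 15 from 100 TPM), up to 6 called members of a list, Cdkn1a, Cd34, Pdpn, Mki67 and 5 Hdac genes, and up to 10 in each direction against VPA and JQ1. Nrp1, Basp1, Map1b, Vim, Actb, Tmsb10 and S100a4 fall outside that rule and were picked with their values in view. Some genes the rule chose are not named here. Alternatives were 12 fits without 1 library and 12 other settings.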

Additional observations from a re-analysis of the deposited data

How the results depend on the processing

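With SAHA against DMSO, fitting these 2 groups alone gave 214 genes higher and 155 lower, and moderation without a trend gave 134 lower, in place of 396 and 270. The fits without 1 library gave 218 to 373 higher and 126 to 264 lower. Between SAHA and VPA, where 58 genes differed, the count was 94 under median-of-ratios scaling, 89 with TPM multiplied by gene length, 19 with the 2 groups alone, 14 without a trend and 15 to 61 without 1 library. Replicate numbers gave no clear pairing of SAHA with DMSO libraries: correlations of same-numbered deviations were −0.0449, 0.0321 and −0.0269. Values this small, from 3 libraries in a group, cannot exclude pairing. With the replicate number as a block, 289 genes were higher and 192 lower with SAHA against DMSO, and 24 differed between SAHA and VPA. Between SAHA and JQ1 all alternatives stayed within 1.5 times of 4270 genes, with 3667 to 4227 without 1 library. No value of a named gene or list reversed a call. Among genes whose calls held without any 1 library, the calls of Tslp, Cda, Pik3r1 and Snora81 were lost with the 2 groups alone, those of S100a4, Calr, Tuba1b, Ncl, Vim, Actb and Tmsb10 without a trend, and Upp1 and Tslp did not pass a filter of 5 TPM. Between SAHA and VPA, H1f0, S100a11 and Ifrd1 lost their calls with the 2 groups alone, and Actg1, Vim, S100a11 and Ifrd1 without a trend. The causes were not tested. At a filter of 5 TPM no median was available for the germ cell and leukocyte lists. Precision is limited by 3 libraries in a group and by an unknown depth.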
